A study of Mus musculus with 18 samples.

Results

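The histone genes of the mouse were compared between neural tube cells marked by a Ptf1a enhancer and embryonic pancreas. Members were the genes whose symbol begins with Hist1h to Hist4h, H1f, H2af or H3f3, which took in 81 of the 23228 genes of the expression table. They comprised 63 replication-dependent copies, 14 variants, 3 copies of the testis type and 1 pseudogene. The classes were read from the symbols.

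The study concerned Ptf1a, a transcription factor needed for inhibitory neurons in the dorsal neural tube and for the exocrine pancreas, and it profiled binding, open chromatin and RNA in both tissues. The neural tube sample held GFP+ cells sorted at E12.5 from embryos of ICR background that carry a transgene in which the 2.3 kb autoregulatory enhancer of Ptf1a, joined to a beta-globin basal promoter, drives GFP. The pancreas sample was whole, unsorted E15.5 pancreas, also from ICR embryos, and both were labelled wild type. The GFP+ cells were therefore those in which this one enhancer was active, whereas the pancreas held every cell type of the organ. Each label named 2 libraries, but a single FPKM value (fragments per kilobase, a level corrected for transcript length and library size) was deposited for each gene and tissue. No replicate spread could be computed, so no p-value is given. A gene was called higher in one tissue when log2(FPKM + 1) differed by 2 or more, that is 4 times on that scale, and the higher value reached 5 FPKM. Tissue, stage, sorting, RNA extraction and library kit differed between the same 2 samples and cannot be told apart, nor can fewer cells of a type and less RNA per cell.

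The labels fitted their marker genes. The 6 neural tube markers, among them Sox2, Lhx5 and Tubb3, summed to 1454 FPKM in neural tube and 8.95 FPKM in pancreas. The 6 pancreas markers, among them Cpa1 and Ins2, summed to 2.52 FPKM in neural tube and 27662 FPKM in pancreas. Other cell types differed as well: 6 mesenchyme markers summed to 29.4 FPKM in neural tube and 968 FPKM in pancreas, 6 macrophage markers to 5.86 FPKM in neural tube and 210.2 FPKM in pancreas, and 6 endothelial markers to 8.57 FPKM in neural tube and 80.2 FPKM in pancreas. Erythroid genes summed to 1226 FPKM in neural tube and 15896 FPKM in pancreas, with the embryonic globins Hba-x and Hbb-bh1 called toward neural tube and the 4 other genes toward pancreas. Their part in the histone values was not tested. Depth was read from the spacing of low values: for a transcript of 1 kb, a single fragment was worth roughly 0.0439 FPKM in neural tube and 0.0242 FPKM in pancreas.

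DNA is wound around an octamer of the core histones H2A, H2B, H3 and H4, and the linker histone H1 binds where it enters and leaves. Replication-dependent genes supply most of this protein in S phase. They lie in clusters of many near-identical copies, mostly lack introns, and give mRNAs that end in a conserved stem-loop bound by SLBP in place of a poly(A) tail. Replacement variants such as H3.3, H2A.Z and macroH2A come from single, usually intron-containing genes whose mRNAs are polyadenylated and are made through the cell cycle. Some replication-dependent genes also give polyadenylated transcripts that read past the stem-loop, chiefly in differentiating cells. The kits named for these libraries were for mRNA, a kind of preparation that usually selects poly(A) tails, so a level here need not stand for all the histone mRNA of a cell.

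The stem-loop was present in nearly all copies. In the mouse genome (mm9, with GENCODE M1 annotation) a 16-base hairpin lay within 200 bases after the stop codon in 58 of 62 replication-dependent genes with an annotated coding sequence, against 34 of 20139 other coding genes (0.169%). The hairpin was defined as a 6-base stem that begins with GG, a 4-base loop that begins with TTT and a matching second arm with at most 1 unpaired position. It began 22 to 59 bases after the stop codon, with a median of 32. One spelling, shared by 38 genes, covered all 5 H1 copies and most H2A and H2B copies, while a spelling found in 8 genes occurred only in H4 genes. The following 26-base stretches, written 5′ to 3′ on the gene's strand with the hairpin in capitals, belong to the copies on which the results below turn.
Hist1h2ap (chr13:21924893-21924918, minus strand): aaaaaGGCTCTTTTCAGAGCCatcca
Hist1h2ah (chr13:22126991-22127016, minus strand): ccaaaGGCTCTTTTCAGAGCCacaca
Hist3h2a (chr11:58768669-58768694, plus strand): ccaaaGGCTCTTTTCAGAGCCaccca
Hist1h4d (chr13:23673814-23673839, plus strand): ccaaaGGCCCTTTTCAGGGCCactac
Hist1h4i (chr13:22132830-22132855, minus strand): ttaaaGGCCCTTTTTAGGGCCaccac
Hist1h3c (chr13:23836911-23836936, minus strand): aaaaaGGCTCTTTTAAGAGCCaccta
Hist1h1c (chr13:23831376-23831401, plus strand): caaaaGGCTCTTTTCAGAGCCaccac
Hist1h2bc (chr13:23776511-23776536, plus strand): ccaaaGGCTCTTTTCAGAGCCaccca
Hist3h2ba (chr11:58762846-58762871, plus strand): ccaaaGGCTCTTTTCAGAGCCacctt
H2afx (chr9:44143318-44143343, plus strand): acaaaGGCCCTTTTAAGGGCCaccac
Hist1h2ap, listed at 0 in pancreas, and Hist1h1c and Hist1h2bc, both called higher in pancreas, thus carry the same 16 letters. Of 12 variants searched, H2afx was the only one with a hairpin, in a spelling of its own. No hairpin was found in Hist1h3g, Hist1h4a, Hist2h2bb or Hist2h2be.

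Replication-dependent copies made up a small part of the histone signal in both tissues. Their summed level was 404.8 FPKM in neural tube and 213.8 FPKM in pancreas, which was 13.8% of the FPKM of all members in neural tube and 8.32% in pancreas. The 14 variants summed to 2507 FPKM in neural tube and 2351 FPKM in pancreas. Of the 63 copies, 57 reached 1 FPKM in at least one tissue and 22 reached 5 FPKM. Those above 20 FPKM were 4: Hist3h2a and Hist3h2ba in neural tube, and Hist1h1c and Hist1h2bc in pancreas.

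Of the 22 copies that could be called, 16 passed toward neural tube and 4 toward pancreas. Among all 10744 genes at 5 FPKM or more, 10.3% were called toward neural tube and 11.9% toward pancreas. With a 2-fold rule 17 copies passed toward neural tube, against 23.2% of these genes, and 4 toward pancreas, against 25.0%. The counts depended on the setting, and so did those of all genes. An 8-fold call left 9 of the 22 copies toward neural tube and 2 toward pancreas, against 5.08% and 6.08% of all genes in those directions. A pseudocount of 5 left 3 toward neural tube and 2 toward pancreas, against 4.77% and 5.58%. A minimum of 10 FPKM left 9 toward neural tube and 3 toward pancreas, against 11.6% and 12.1% of 8177 genes. With both samples scaled to equal totals, which multiplied neural tube values by 1.54, 25 of 35 copies passed toward neural tube and 4 toward pancreas, against 16.8% and 8.6% of 11362 genes. Of the 57 copies at 1 FPKM or more, 43 had their higher value in neural tube, against 48.0% of 14303 genes. The median difference of these 57 copies was 1.16 (log2, neural tube minus pancreas), against -0.07 for all genes at that level. FPKM of short transcripts depends on how the fragment length is corrected for, and the copies had a median annotated length of 531 bases. The 1106 other genes with an annotated transcript under 1 kb lay the other way: 30.0% had the higher value in neural tube and their median difference was -0.84, while of the 884 that could be called, 7.58% were called toward neural tube and 26.9% toward pancreas.

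The direction differed by histone type. The value was higher in neural tube for 16 of 17 H2A copies, 11 of 12 H3 copies and 11 of 13 H4 copies. H2B copies were split, and the 5 H1 copies had higher values in pancreas, except that Hist1h1a turned when the samples were scaled to equal totals or centred on short transcripts. The H2A and H3 counts were the same under each of the 5 scalings tried, and the H4 count was 10 to 12.

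**Figure D1:**
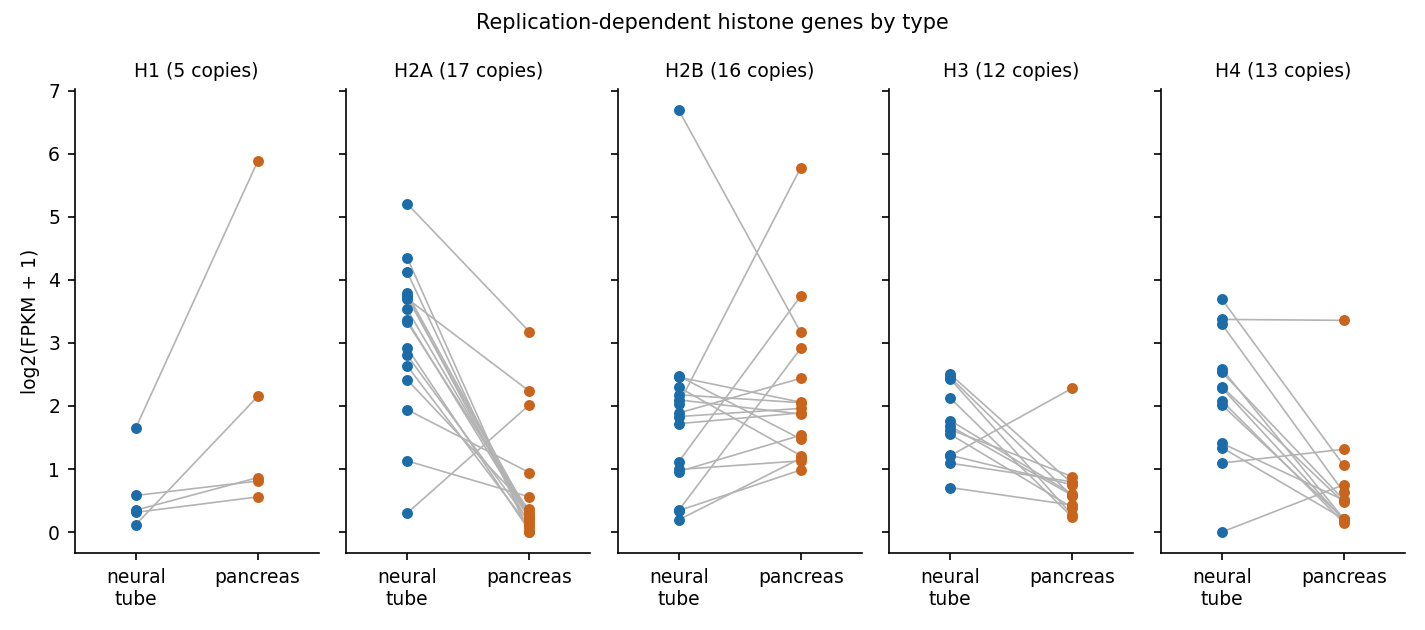
Level of each of the 63 replication-dependent copies, as log2(FPKM + 1), in neural tube (blue, left) and pancreas (orange, right), with 1 line per gene and 1 panel per type. Of the 17 H2A lines, 16 descend to the pancreas point, whereas the 5 H1 lines climb to it as deposited, that of Hist1h1a reversing with equal totals or short-transcript centring.

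H2A copies had the largest shift toward neural tube of the core types. Their 17 copies summed to 176.5 FPKM in neural tube and 17.7 FPKM in pancreas, a 9.96-fold difference in the sum, and 12 of the 13 that reached 5 FPKM were called higher in neural tube. Hist3h2a, the highest H2A copy in both tissues (mm9 chr11:58768187-58770176), stood at 36.0 FPKM in neural tube and 8.07 FPKM in pancreas. Hist1h2ap (chr13:21924926-21925444) had 19.4 FPKM in neural tube and was listed at 0 in pancreas. Hist2h2aa2 (chr3:96043639-96044216) had 16.4 FPKM in neural tube and was likewise listed at 0 in pancreas.

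Both zeros belong to copies that could not be separated from other copies. Every 50-base window of Hist1h2ap, Hist1h2ao, Hist2h2aa1 and Hist2h2aa2 recurs in another member, so reads could have been divided between copies in more than one way. Hist2h2aa1, a near-identical neighbour of Hist2h2aa2, had 12.0 FPKM in neural tube and 3.71 FPKM in pancreas. The sum of that pair was 28.5 FPKM in neural tube and 3.71 FPKM in pancreas, and Hist1h2ao and Hist1h2ap together had 23.8 FPKM in neural tube and 0.290 FPKM in pancreas. The sums therefore kept the direction of the single copies.

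Among the 12 H2A copies of the large Hist1 cluster on chromosome 13, 11 had the higher value in neural tube, and the cluster's H2A sum was 105.7 FPKM in neural tube and 5.42 FPKM in pancreas. The 9 called copies lay between 5.98 FPKM (Hist1h2ab) and 19.4 FPKM (Hist1h2ap) in neural tube, while the highest of them in pancreas was Hist1h2af at 0.253 FPKM. They were chosen by the call, which sets this gap. Over all 12 copies the ranges overlap, from 0.232 to 19.4 FPKM in neural tube and from 0 to 3.04 FPKM in pancreas. Pancreas levels this low rest on few fragments: 7 H2A copies held fewer than about 3 fragments there, a depth at which their order cannot be read. Hist1h2ac was the 1 H2A copy with the higher value in pancreas, at 0.232 FPKM in neural tube and 3.04 FPKM in pancreas.

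H4 and H3 copies leaned the same way at lower levels. The 13 H4 copies summed to 58.5 FPKM in neural tube and 15.0 FPKM in pancreas, and the neural tube value was higher in 11. The 3 called copies were Hist1h4d, at 11.9 FPKM in neural tube and 1.08 FPKM in pancreas, Hist1h4n, at 8.85 FPKM in neural tube and 0.546 FPKM in pancreas, and Hist1h4b, at 5.02 FPKM in neural tube and 0.155 FPKM in pancreas. Hist1h4i (chr13:22132685-22133221) differed from them, with 9.36 FPKM in neural tube and 9.26 FPKM in pancreas, and it alone made 61.7% of the pancreas H4 signal. Without it the log2 ratio of the H4 sums was 3.09 instead of 1.96. The number of H4 calls toward neural tube depended on the scaling. It was 2 of 3 copies at 5 FPKM with median-ratio or upper-quartile scaling. With equal totals, short-transcript or housekeeping scaling it was 6 of 7.

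No H3 copy reached 5 FPKM as deposited, so none could be called. With equal totals or short-transcript centring, 4 reached that level and all 4 were called toward neural tube. With housekeeping scaling the same held for 3. Equal totals called 16.8% of all genes toward neural tube. The 12 copies summed to 29.9 FPKM in neural tube and 9.36 FPKM in pancreas, with higher neural tube values in 11. Hist1h3c had 4.67 FPKM in neural tube and 0.703 FPKM in pancreas, and Hist1h3b had 4.48 FPKM in neural tube and 0.483 FPKM in pancreas. Hist2h3c1 was the exception, at 1.32 FPKM in neural tube and 3.86 FPKM in pancreas. Its annotated transcript (chr3:96049477-96052431) overlaps that of Hist2h2aa1 (chr3:96049461-96050038) on the same strand, so reads in the overlap could have gone to either gene.

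H2B copies showed no common direction. Of 16 copies, 6 had the higher value in neural tube and 10 in pancreas as deposited, counts that became 9 in neural tube and 7 in pancreas with equal totals, short-transcript or housekeeping scaling. The calls stayed at 1 toward neural tube and 3 toward pancreas under each scaling. The sums were 136.7 FPKM in neural tube and 108.3 FPKM in pancreas. Each sum was set by few copies. Hist3h2ba (chr11:58762413-58763032), the highest replication-dependent gene of the table, had 102.5 FPKM in neural tube and 7.99 FPKM in pancreas, and made 75.0% of the neural tube sum. Without it the log2 ratio of the sums was -1.55 instead of 0.34.

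The 3 H2B copies called higher in pancreas were Hist1h2bc, Hist1h2bg and Hist1h2bq. Hist1h2bc (chr13:23776068-23784357) had 3.09 FPKM in neural tube and 53.9 FPKM in pancreas, Hist1h2bg had 1.17 FPKM in neural tube and 12.4 FPKM in pancreas, and Hist1h2bq had 0.270 FPKM in neural tube and 6.53 FPKM in pancreas. Together they had 4.52 FPKM in neural tube and 72.9 FPKM in pancreas. The other 12 H2B copies stayed under 5 FPKM in both tissues, from 0.145 to 4.56 FPKM in neural tube and from 0.979 to 4.42 FPKM in pancreas, and they summed to 29.7 FPKM in neural tube and 27.4 FPKM in pancreas.

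Linker histone copies were low in neural tube. The 5 H1 copies summed to 3.22 FPKM there and to 63.4 FPKM in pancreas, which was 19.7-fold higher in pancreas. Nearly all of this was Hist1h1c (chr13:23830676-23832235), at 2.13 FPKM in neural tube and 57.9 FPKM in pancreas, 91.3% of the pancreas sum. Hist1h1d had 0.0828 FPKM in neural tube and 3.44 FPKM in pancreas, under the level for a call. Hist1h1a, Hist1h1b and Hist1h1e together had 1.01 FPKM in neural tube and 2.04 FPKM in pancreas, and Hist1h1a alone, at 0.495 FPKM in neural tube and 0.753 FPKM in pancreas, had a difference whose sign turned with equal totals.

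**Figure D2:**
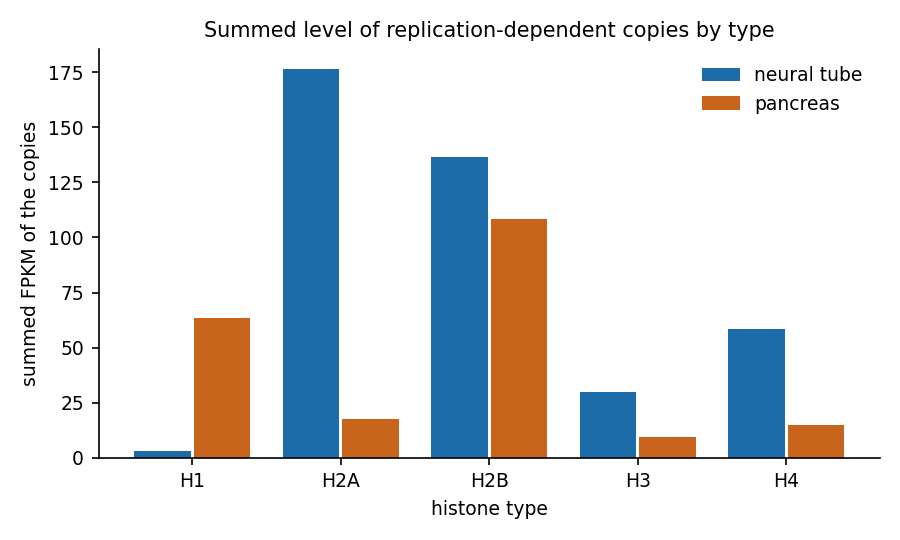
Summed FPKM of the replication-dependent copies of each histone type in neural tube (blue) and pancreas (orange). The H2A bar is higher in neural tube, the H1 bar is higher in pancreas, and the H2B bars of 136.7 FPKM in neural tube and 108.3 FPKM in pancreas change order when Hist3h2ba is left out.

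The copies were also summed by cluster. The 50 replication-dependent copies of Hist1, which spans chr13:21807632-24026720, summed to 217.8 FPKM in neural tube and 181.3 FPKM in pancreas. Of the 17 that reached 5 FPKM, 12 were called higher in neural tube and 4 in pancreas. The shares over all genes at that level were 10.3% toward neural tube and 11.9% toward pancreas. The 10 copies of Hist2 on chromosome 3 summed to 47.5 FPKM in neural tube and 14.9 FPKM in pancreas. Of the 3 that reached 5 FPKM, 2 were called higher in neural tube and 0 in pancreas. The 2 copies of Hist3 on chromosome 11, Hist3h2a and Hist3h2ba, summed to 138.4 FPKM in neural tube and 16.1 FPKM in pancreas, and both were called toward neural tube. Hist4h4, the single copy of Hist4 on chromosome 6, had 1.14 FPKM in neural tube and 1.49 FPKM in pancreas.

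The pseudogene Hist3h2bb-ps, the divergent neighbour of Hist3h2a, was called higher in neural tube as well, at 29.7 FPKM in neural tube and 1.58 FPKM in pancreas. The 3 testis-type genes were low in both tissues. Hist1h1t was listed at 0 in neural tube and had 0.433 FPKM in pancreas, Hist1h2aa had 1.73 FPKM in neural tube and 0.000693 FPKM in pancreas, and Hist1h2ba had 0.823 FPKM in neural tube and 0.465 FPKM in pancreas.

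Within Hist1 and Hist2, 10 replication-dependent H2A genes lie head to head with a replication-dependent H2B gene, their annotated starts 167 to 268 bases apart. Such pairs compare neighbouring genes, but their copies were already counted by type above, so they add no separate evidence. In pancreas, the values of Hist1h2ak, Hist1h2ah, Hist1h2an and Hist2h2ac rest on fewer than about 3 fragments each. In 10 of 10 pairs the difference (neural tube minus pancreas) of the H2A gene exceeded that of its H2B partner. The H2A value was higher in neural tube in 9 pairs and the H2B value in 3, with median differences of 3.02 for H2A and -0.15 for H2B. In 6 pairs the H2A gene had the higher value in neural tube and the H2B gene in pancreas, although several of these H2B differences were small: with equal totals, short-transcript or housekeeping scaling the H2B value was higher in neural tube in 6 pairs, and in the H2A genes the count stayed at 9. Divergent pairs that include a testis-type gene or the pseudogene were not counted among the 10. For Hist3h2a and the pseudogene Hist3h2bb-ps the order was reversed, with differences of 2.03 and 3.57. For the testis-type genes Hist1h2aa and Hist1h2ba, low in both tissues, the differences were 1.45 and 0.32.

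The following 3 pairs, chosen after their values were seen, show the range. Hist1h2ah had 12.5 FPKM in neural tube and 0.0812 FPKM in pancreas, while its partner Hist1h2bk had 4.49 FPKM in neural tube and 3.17 FPKM in pancreas. Hist1h2ao had 4.33 FPKM in neural tube and 0.290 FPKM in pancreas, while Hist1h2bq had 0.270 FPKM in neural tube and 6.53 FPKM in pancreas. Hist1h2ac and Hist1h2bc were the 1 pair in which both values were higher in pancreas. The intervals between their annotated starts follow, on the plus strand of mm9, with 3 motifs in capitals wherever they or their reverse complements occur. The motifs were the CCAAT box, a TATA box spelled TATAAA, and the core of the octamer motif, TTTGCAT.
Hist1h2ah and Hist1h2bk (chr13:22127513-22127689): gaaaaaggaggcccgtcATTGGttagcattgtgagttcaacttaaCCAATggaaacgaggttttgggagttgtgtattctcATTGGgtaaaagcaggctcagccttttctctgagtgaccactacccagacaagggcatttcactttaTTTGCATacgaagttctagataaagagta
Hist1h2bq and Hist1h2ao (chr13:21902069-21902235): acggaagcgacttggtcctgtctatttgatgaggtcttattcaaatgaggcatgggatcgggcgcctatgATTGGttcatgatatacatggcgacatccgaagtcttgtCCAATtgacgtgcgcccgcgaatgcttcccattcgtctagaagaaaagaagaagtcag
Hist1h2ac and Hist1h2bc (chr13:23775818-23776067): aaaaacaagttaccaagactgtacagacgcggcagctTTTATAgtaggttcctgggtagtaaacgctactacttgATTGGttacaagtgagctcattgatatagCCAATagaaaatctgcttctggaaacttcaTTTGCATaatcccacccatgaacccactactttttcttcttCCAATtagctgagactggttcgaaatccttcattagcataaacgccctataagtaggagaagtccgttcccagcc
Over the intervals of all 10 pairs, 10 hold 2 or more CCAAT boxes, 4 hold the TATA letters and 4 hold the octamer core, which is known from H2B promoters. A match describes the letters in the window and does not show that a factor binds there.

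**Figure D3:**
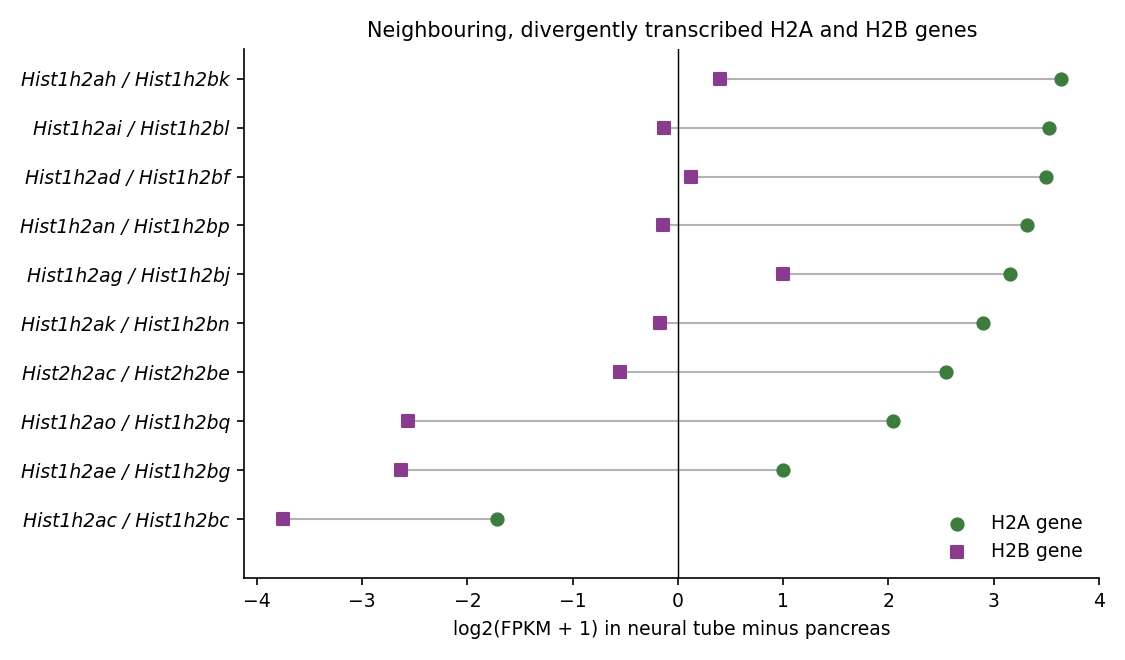
Difference in log2(FPKM + 1), neural tube minus pancreas, of the H2A gene (green circle) and the H2B gene (purple square) of each of 10 divergent pairs, ordered by the H2A difference. Every circle lies to the right of its square, by 2.03 at least and 4.62 at most.

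Promoter motifs differed between H4 copies and the other types. In RefSeq promoters (GRCm38.p6, 250 bases before to 50 after the gene start, 71 members matched, both strands) CCAAT occurred in 45 of 45 H1, H2A, H2B and H3 copies and in 3 of 12 H4 copies, against 37.9% of 27025 promoters. The TATA letters TATAAA occurred in 4 of 5 H1, 10 of 16 H2A, 7 of 14 H2B, 4 of 10 H3 and 8 of 12 H4 copies, against 14.2% of all promoters. The octamer core occurred in 6 of 16 H2A and 5 of 14 H2B copies, in 1 of 12 H4 copies and in 0 of the H1 and H3 copies, against 4.59% of all promoters. Divergent H2A and H2B partners start 167 to 268 bases apart, so their windows overlap. One motif can therefore be counted for both genes of a pair.

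The difference also varied with the annotated 3′ end. This split was made after the values were seen. In 40 copies the annotated transcript ended less than 100 bases past the hairpin or before it. They summed to 215.8 FPKM in neural tube and 35.4 FPKM in pancreas, and their median difference was 1.91. Of the 14 that reached 5 FPKM, 13 were called higher in neural tube and 0 in pancreas. Among all genes at that level, 10.3% were called toward neural tube and 11.9% toward pancreas. In 18 copies an annotated transcript ran 100 bases or more past the hairpin. Of the 8 among them that reached 5 FPKM, 3 were called higher in neural tube and 4 in pancreas. The 18 copies summed to 179.4 FPKM in neural tube and 171.3 FPKM in pancreas, and their median difference was -0.06. The sums rest on Hist3h2a and Hist3h2ba: without this pair the other 16 copies summed to 41.0 FPKM in neural tube and 155.2 FPKM in pancreas, with 1 called higher in neural tube and 4 in pancreas.

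All 4 copies called higher in pancreas, Hist1h1c, Hist1h2bc, Hist1h2bg and Hist1h2bq, belong to the 18 with an extended annotated transcript, as do Hist3h2a and Hist3h2ba. Among copies that end at the hairpin, the 13 H2A copies summed to 124.7 FPKM in neural tube and 5.49 FPKM in pancreas, whereas the 8 H2B copies summed to 25.6 FPKM in neural tube and 19.6 FPKM in pancreas. Whether the reads themselves extend past the hairpin was not tested, since only gene-level values were used.

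**Figure D4:**
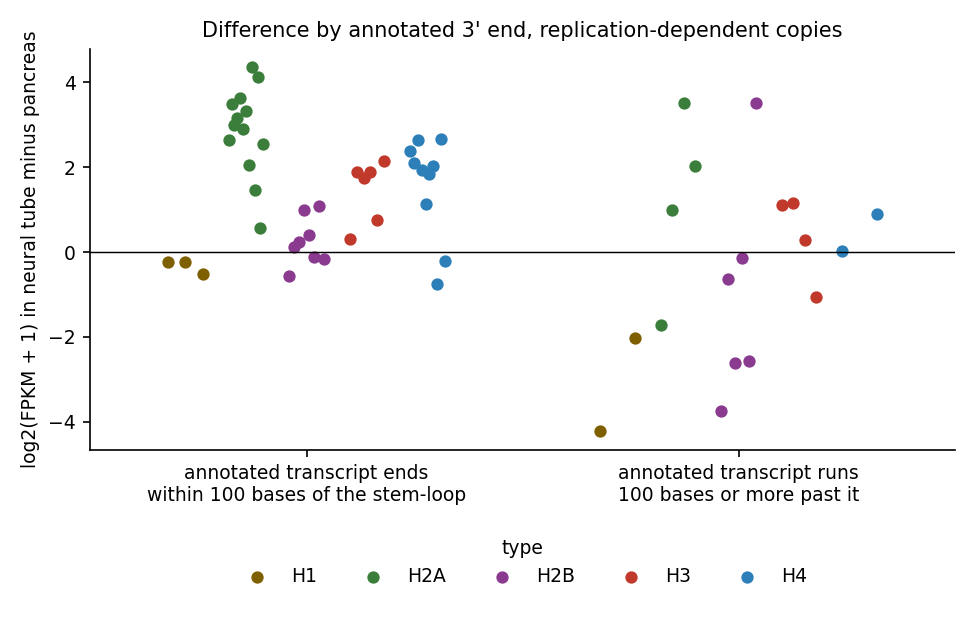
Difference in log2(FPKM + 1), neural tube minus pancreas, of replication-dependent copies whose annotated transcript ends within 100 bases of the stem-loop (left, 40 copies) or runs 100 bases or more past it (right, 18 copies), coloured by type. The points below -2 all lie on the right, and H2A and H4 copies fill the upper left.

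Variants outnumbered the copies in signal in both tissues, and the most abundant of them had similar levels. Their sums differed by 0.09 on the log2 scale as deposited, a sign that turned to -0.02 with upper-quartile scaling. H3f3a and H3f3b, which encode the same H3.3 protein, had 551.7 and 439.8 FPKM in neural tube and 627.0 and 483.3 FPKM in pancreas. H2afz, which encodes H2A.Z, had 581.5 FPKM in neural tube and 820.4 FPKM in pancreas. None of the 3 was called, and the sign of each difference turned when the samples were scaled to equal totals or centred on short transcripts, and for H3f3a and H3f3b also with housekeeping scaling.

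H3.3 was the bulk of the H3 signal. Replication-dependent copies were 2.93% of the H3 FPKM in neural tube and 0.836% in pancreas. For H2A the copies were 13.1% in neural tube and 1.72% in pancreas, and for H1 they were 0.923% in neural tube and 21.9% in pancreas. H2B and H4 have no variant among the members. These are shares of measured FPKM. Kits for mRNA usually select poly(A) tails, so they need not be shares of all histone mRNA.

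Of 10 variants at 5 FPKM or more, 3 were called higher in neural tube and 0 in pancreas. Among all 10744 genes at that level, 10.3% were called toward neural tube and 11.9% toward pancreas. H1fx, the linker variant H1.10 (chr6:87930416-87931476), had 210.8 FPKM in neural tube and 8.70 FPKM in pancreas, the largest difference of the variants at 4.45. The linker variant H1f0, known to accumulate in differentiated cells, had 135.1 FPKM in neural tube and 217.7 FPKM in pancreas and was not called.

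H2afy2 and H2afy encode macroH2A2 and macroH2A1, variants with a large non-histone domain that are linked to gene silencing. H2afy2 was called, at 121.5 FPKM in neural tube and 18.1 FPKM in pancreas, and H2afy was not, at 177.7 FPKM in neural tube and 86.3 FPKM in pancreas. H2afj was called, at 26.0 FPKM in neural tube and 3.61 FPKM in pancreas. H2afx, which encodes the H2A.X that is phosphorylated at DNA breaks, had 129.3 FPKM in neural tube and 48.7 FPKM in pancreas, and H2afv, the second H2A.Z gene, had 130.9 FPKM in neural tube and 37.6 FPKM in pancreas. Neither was called as deposited, but both passed the rule toward neural tube with equal totals or short-transcript centring, and H2afv also with housekeeping scaling. H2afy3 had 2.31 FPKM in neural tube and 0.0953 FPKM in pancreas. The 3 remaining variants are germ-line types: H1foo and H2afb1 were listed at 0 in both tissues, and H1fnt was listed at 0 in neural tube and at 0.0158 FPKM in pancreas.

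**Figure D5:**
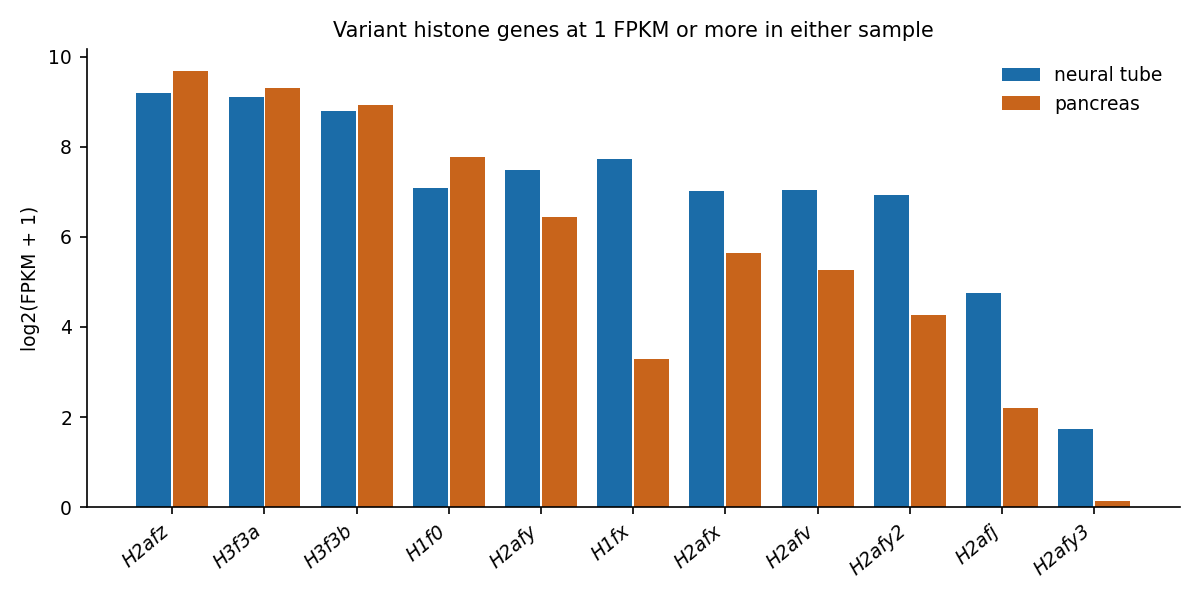
Level of the 11 variants at 1 FPKM or more in either tissue, as log2(FPKM + 1), in neural tube (blue, left bar) and pancreas (orange, right bar), ordered by their mean. H2afz, H3f3a and H3f3b are high in both tissues, and H1fx has the widest gap.

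Genes of DNA replication and histone handling were examined beside the members. Of 45 DNA replication genes, 44 of which reached 5 FPKM, 0 were called in either direction by the 4-fold rule, their median difference was -0.43, which became 0.18 with equal totals, and their sums were 1417 FPKM in neural tube and 1757 FPKM in pancreas. Pcna, the sliding clamp, had 153.4 FPKM in neural tube and 309.9 FPKM in pancreas, while the helicase subunit Mcm7 had 111.9 FPKM in neural tube and 87.5 FPKM in pancreas. Differences were largest for E2f1, a transcription factor of S-phase genes, at 49.2 FPKM in neural tube and 14.0 FPKM in pancreas, and for Gmnn, an inhibitor of origin licensing, at 24.6 FPKM in neural tube and 81.1 FPKM in pancreas.

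Histone mRNA processing genes were likewise without a call in either direction among 25 that reached 5 FPKM, with a median difference of 0.08 that was -0.02 with upper-quartile scaling. Slbp, whose protein binds the stem-loop, had 29.5 FPKM in neural tube and 58.5 FPKM in pancreas. Lsm11, a part of the U7 particle that guides cleavage past the loop, had 7.15 FPKM in neural tube and 2.33 FPKM in pancreas. Upf1, which acts in the decay of histone mRNA, had 38.2 FPKM in neural tube and 13.7 FPKM in pancreas.

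Of 37 histone chaperone genes measured, 36 reached 5 FPKM, and 2 were called higher in neural tube and 2 in pancreas. Among all genes at that level, 10.3% were called toward neural tube and 11.9% toward pancreas. The neuronal nucleosome assembly genes Nap1l2 and Nap1l5 had 10.2 and 9.62 FPKM in neural tube and 0.481 and 0.947 FPKM in pancreas. Npm1, nucleophosmin, had 259.2 FPKM in neural tube and 1347 FPKM in pancreas, and Rbbp7, a histone-binding subunit shared by several complexes, had 38.4 FPKM in neural tube and 166.4 FPKM in pancreas. Of the 9 genes that place or read the centromeric H3 variant, Cenpa itself had 39.8 FPKM in neural tube and 45.0 FPKM in pancreas, and 1 gene, Cenpi, was called higher in pancreas, at 1.40 FPKM in neural tube and 9.37 FPKM in pancreas. With equal totals, where 16.8% of all genes passed toward neural tube and 8.6% toward pancreas, the calls toward neural tube were 3 of 44 replication genes, 1 of 26 processing genes, 4 of 37 chaperones and 0 of 9 centromeric genes, and none of these 4 lists held a call toward pancreas.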

How the data were processed

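RNA was profiled by sequencing in 2 samples, GFP+ E12.5 neural tube cells and E15.5 pancreas; the other 16 samples of the series (ChIP, FAIRE and input) hold no expression values and were not used here. The authors deposited 1 FPKM value per gene and tissue, normalised per transcript length and per mapped fragment. The submitters' processing notes name CASAVA, TopHat, TopHat2 2.0.4, Cuffdiff 2.0.2 and the mm9 build; for the gene annotation and the handling of near-identical copies the sources used here give nothing. Values were taken as log2(FPKM + 1), with Python 3.11.15, pandas 2.3.3 and numpy 2.4.6. A call needed a difference of 2 and 5 FPKM in the higher sample; the medians used genes at 1 FPKM or more. How often this rule miscalls a copy at the levels seen here was not tested. Positions, hairpins and intergenic sequences came from GENCODE M1 and the mm9 genome, and promoters from RefSeq. H1f0, Hist2h3c2, H2afy3 and Hist3h2bb-ps are annotated as pseudogenes in GENCODE M1, have no coding sequence there and were not searched for hairpins. Only Hist3h2bb-ps was classed as a pseudogene here, by its symbol.

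The members and gene lists were chosen with earlier results of these data known. Named genes were every variant at 1 FPKM or more; for each type of copy, the 3 highest means and the 2 largest differences in each direction at 5 FPKM or more; and, in each related list, the 2 highest means and the 2 largest differences in each direction. Other genes named were chosen after their values were seen. Alternatives were other pseudocounts, minimum levels, folds and scalings, and sums without the highest member. Of 21 mitotic genes, 2 were called higher in pancreas. Of 14 cell cycle exit genes, 12 reached 5 FPKM and 3 were called higher in pancreas. Neither list held a call in neural tube. Among all genes at 5 FPKM or more, 10.3% were called toward neural tube and 11.9% toward pancreas. The value was higher in pancreas for 19 of the mitotic genes, and for 12 with equal totals. Their median difference was -0.87, or -0.26 with equal totals. The 6 germ cell markers summed to 0.265 FPKM in neural tube and 0.510 FPKM in pancreas.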

Additional observations from a re-analysis of the deposited data

How the results depend on the processing

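No paired analysis was possible because each tissue has 1 deposited value per gene, with no replicate number, and for the same reason no replicate could be left out. Across 26 named members and 286 values under the alternatives, 246 kept their sign and side of the threshold, 13 lost a call, 15 gained one, and 12 uncalled values of 5 genes (H2afz, H3f3a, H3f3b, Hist1h1a and Hist1h4i) turned their sign under a scaling. No called value turned. Equal totals multiplied neural tube values by 1.54 and moved the median of the 14303 genes at 1 FPKM or more to 0.49 (log2), against -0.07 as deposited, and centring on 28 housekeeping genes, 5 of them called higher in pancreas, to 0.34; read the following against that shift. With equal totals, and equally with short transcripts centred, the calls in neural tube were 25 of the copies and 5 of the variants, the variants' median was 2.01, and the log2 ratios of the sums were 1.55 for all copies, 0.72 for variants, -3.67 for H1, 3.94 for H2A, 0.96 for H2B, 2.30 for H3 and 2.59 for H4. Leaving out the highest member gave -2.33 for H1, -1.55 for H2B and 3.09 for H4; leaving out the Hist3 cluster, an alternative chosen after seeing the data, gave the same -1.55 for H2B and turned the copies with an extended annotated transcript to -1.92, against 0.07 with it. An 8-fold call left 9 copies and 1 variant in neural tube and 2 copies in pancreas, and a 2-fold call gave 6 variants in neural tube. A minimum of 10 FPKM gave 9 copies called in neural tube and a median of 3.32; no minimum gave a variants' median of 0.52. A pseudocount of 0.1 gave the copies a median of 2.02, and one of 5 gave 0.50, with 3 copies called in neural tube and 2 in pancreas. Where fewer genes were tested or a scale multiplied 1 sample, the shift follows from the alternative itself; for the others the cause was not tested. Levels under about 3 fragments, 0.263 FPKM in neural tube and 0.145 FPKM in pancreas on a 500-base transcript, limit what can be read: 1 copy in neural tube and 9 in pancreas lay there. The 25 copies that share at least 50% of their 50-base windows with another member have uncertain single values. They summed to 164.2 FPKM in neural tube and 25.9 FPKM in pancreas. Of the 10 at 5 FPKM or more, 9 were called toward neural tube and 0 toward pancreas. The lean was weaker in the other 38 copies, which summed to 240.6 FPKM in neural tube and 187.9 FPKM in pancreas. Of their 12 at that level, 7 were called toward neural tube and 4 toward pancreas. Among all genes, the shares were 10.3% and 11.9%.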
